A study of Mus musculus with 4 samples.

Results

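The genes described here encode 9 subunits of the 2 ring-shaped SMC complexes that fold chromosomes. Of the 15002 genes in the tables of the 4 labelled tumours, 4 were taken for condensin (Smc2, Smc4, Ncapd2 and Ncapg) and 5 for cohesin (Smc1a, Smc3, Rad21, Stag1 and Stag2). They were chosen by name, and all 9 had counts in every tumour. Their levels were compared within each tumour between G2/M-like, S-phase-like, progenitor-like and neuronal cells, classes named by their marker transcripts. Barcodes with at least 500 unique molecular identifiers (UMIs, each standing for 1 captured transcript) were used.

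The cells came from 4 mouse medulloblastomas, cerebellar tumours, profiled by Drop-seq, which counts the 3′ ends of transcripts of single cells caught in droplets. All 4 tumours belong to 1 group: untreated mice at postnatal day 16 with the genotype hGFAP-Cre, SmoM2, Prkaa1 fl/fl and Prkaa2 fl/fl. SmoM2 is a Smoothened allele that keeps Sonic hedgehog (SHH) signalling on, and Prkaa1 and Prkaa2 encode the catalytic subunits of AMP-activated protein kinase. The series compares such tumours with intact ones, which were not analysed here, so each comparison below is between cell classes of the same tumours. The hGFAP-Cre driver acts in neural and glial precursors, and vessel and immune cells are outside its lineage. Pieces of tumour or cerebellum were dissociated with papain, and the labels say no more on how the tumours relate to each other than that they are separate samples.

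Condensin compacts chromosomes as cells enter mitosis. Its Smc2 and Smc4 ATPase arms are closed by a kleisin and paired with HEAT-repeat subunits, Ncaph, Ncapd2 and Ncapg in condensin I and Ncaph2, Ncapd3 and Ncapg2 in condensin II. Cohesin, built on Smc1a, Smc3, the kleisin Rad21 and either Stag1 or Stag2, holds sister chromatids together and also forms chromatin loops in interphase, in dividing and in postmitotic cells.

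The sequences upstream of the genes are shown first, because all 4 condensin members had larger folds between G2/M-like and neuronal cells than Smc1a and Smc3. In RefSeq (GRCm38.p6), 6 of the 9 members had an entry, and the 250 bases before the start are printed for 3 condensin and 2 cohesin genes. Capitals mark TTTGAA or its reverse TTCAAA, the cell cycle genes homology region, a motif known from promoters of mitotic genes. The windows, in order, are chr4:52438971-52439220 on the plus strand, chr5:45669675-45669924 on the plus strand, chr6:125191587-125191836 on the minus strand, chrX:152016178-152016427 on the plus strand and chr19:53600146-53600395 on the plus strand.
Smc2: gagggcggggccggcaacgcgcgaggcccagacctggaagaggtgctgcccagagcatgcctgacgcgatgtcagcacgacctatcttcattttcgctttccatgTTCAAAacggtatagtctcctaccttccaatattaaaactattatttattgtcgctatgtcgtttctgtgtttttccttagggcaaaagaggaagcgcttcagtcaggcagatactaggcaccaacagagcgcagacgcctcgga
Ncapg: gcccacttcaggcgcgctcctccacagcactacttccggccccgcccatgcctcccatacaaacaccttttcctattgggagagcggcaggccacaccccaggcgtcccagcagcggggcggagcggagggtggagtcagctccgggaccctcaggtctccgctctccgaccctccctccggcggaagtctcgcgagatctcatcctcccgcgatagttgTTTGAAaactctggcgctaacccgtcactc
Ncapd2: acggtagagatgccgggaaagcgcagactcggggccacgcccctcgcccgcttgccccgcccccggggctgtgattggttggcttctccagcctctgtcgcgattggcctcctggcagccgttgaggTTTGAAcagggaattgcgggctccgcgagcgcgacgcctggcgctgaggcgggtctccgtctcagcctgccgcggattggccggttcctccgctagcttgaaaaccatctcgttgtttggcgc
Smc1a: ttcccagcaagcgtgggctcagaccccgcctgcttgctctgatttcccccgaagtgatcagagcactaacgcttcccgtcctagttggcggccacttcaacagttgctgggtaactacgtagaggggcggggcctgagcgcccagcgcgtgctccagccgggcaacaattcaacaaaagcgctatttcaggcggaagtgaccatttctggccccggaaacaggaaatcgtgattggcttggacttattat
Smc3: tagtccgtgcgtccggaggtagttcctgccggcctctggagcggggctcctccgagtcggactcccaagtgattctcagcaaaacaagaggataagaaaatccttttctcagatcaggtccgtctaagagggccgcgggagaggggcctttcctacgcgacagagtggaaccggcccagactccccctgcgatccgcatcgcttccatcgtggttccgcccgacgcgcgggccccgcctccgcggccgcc
The match began 145 bases before the RefSeq start of Smc2, 30 before that of Ncapg and 123 before that of Ncapd2. Annotations differ in their starts: the GENCODE starts of Ncapd2 and Ncapg, given at the end, lie inside the windows printed for them. Part of each of these windows is therefore within the gene by GENCODE. With the other condensin subunits added, 5 of 7 with an entry held the motif in 1 of their windows, Ncapd3 only at its second start. None of the 3 cohesin members with an entry (Smc1a, Smc3 and Stag1) held it. The Stag1 window, not printed, is chr9:100643198-100643447 on the plus strand. By GENCODE it lies wholly inside Stag1, which starts at 100597798, and not upstream of it. Among the other genes named below, Top2a, Pds5b, Ctcf, Smc6, Espl1, Cdca5 and Hdac8 held it. Kif4, Top2b, Mau2, Nsmce1, Smc5, Smchd1, Pttg1, Rec8, Smc1b, Wapal (in RefSeq Wapl) and the shugoshins (Sgo1 and Sgo2a) did not. Of all 32851 windows of this length, 16% held it on either strand. CCAAT (reverse ATTGG), also searched on both strands, was in 3 of 7 condensin subunits, 2 of 3 cohesin members and 33.8% of all windows. A match is a run of letters and was not tested as a binding site. Smc4, Rad21 and Stag2 had no entry.

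The 4 tables held 3222 barcodes with at least 500 UMIs, 566 to 1083 per tumour, with medians of 749 to 972 UMIs. Tumours 1 and 2 stood apart from tumours 3 and 4: mitochondrial transcripts took 12.1% and 12.7% of UMIs in the first pair and 2.68% and 2.13% in the second. The labels name no batch, and the values of each pair are given beside the results they touch. Prkaa1 had 16, 4, 3 and 5 UMIs and Prkaa2 10, 5, 10 and 14 UMIs in tumours 1 to 4, and a 3′ count does not show the loss of a floxed exon. A single barcode sequence occurred in the tables of both tumour 2 and tumour 4. Scrublet called 12 doublets, 0.124% to 0.707% of barcodes per tumour, and these were kept, so doublets were in effect not removed.

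Cells were clustered on genes that exclude the 9 members and the lists of other condensin, cohesin, SMC5/6 and partner genes, so the classes did not rest on them. A G2/M-like cluster of 636 cells was led by Aspm, Cenpf and Cenpe, and an S-phase-like cluster of 540 cells by Hells, Slfn9 and Ccne2. A progenitor-like cluster of 263 cells was led by Hes1, with 3 markers of SHH-responsive progenitors among its 50 leading genes. Its G2/M markers summed to 2058, 2370, 1115 and 1908 CPM (UMIs of a gene scaled to a common total of all UMIs) in tumours 1 to 4. In each tumour they exceeded those of neuronal cells, at 1188, 2084, 673 and 814 CPM. The S-phase markers of the progenitor-like cluster summed to 3246 to 3659 CPM. This was as high as the 3242 to 3716 CPM of G2/M-like cells and above the 930 to 1563 CPM of neuronal cells. The data therefore go in part against the label "non-dividing", and the cluster is called progenitor-like. The S-phase-like cluster also carried G2/M markers, at 5655, 6383, 2960 and 4383 CPM in tumours 1 to 4. Its S-phase markers summed to 6035, 6479, 6775 and 7021 CPM. When each cell was instead given the marker list with the most UMIs, 201 of its 540 cells were set as S phase. Neuronal cells were 2 clusters, 631 cells led by Pdzrn3 and Cntn2 and 382 cells led by Vps51, Neurod2 and Grin2b. Clusters of 604, 66 and 29 cells stayed unnamed, 49 cells were oligodendrocyte-like, and 22 microglia-like cells served as a reference.

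The ATPase arms of condensin were highest in G2/M-like cells and lowest in neuronal cells in every tumour. Smc2 reached 2082, 1933, 1403 and 1253 CPM in tumours 1 to 4 in G2/M-like cells, 1427, 1171, 1039 and 823 CPM in S-phase-like cells, 930, 550, 168 and 330 CPM in progenitor-like cells and 241, 363, 132 and 169 CPM in neuronal cells. Each step down held in 4 of 4 tumours, although the ranges of neighbouring classes overlapped. Smc4 reached 1942, 1868, 2790 and 2631 CPM in G2/M-like cells, 931, 1006, 1275 and 1395 CPM in S-phase-like cells, 376, 601, 589 and 578 CPM in progenitor-like cells and 317, 502, 333 and 301 CPM in neuronal cells. For Smc4 the G2/M-like, S-phase-like and progenitor-like ranges did not overlap, and the progenitor-like and neuronal ranges did. In G2/M-like cells Smc2 was higher in tumours 1 and 2 and Smc4 in tumours 3 and 4, the same pairs that differ in mitochondrial share, whose part in this was not tested.

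**Figure D1:**
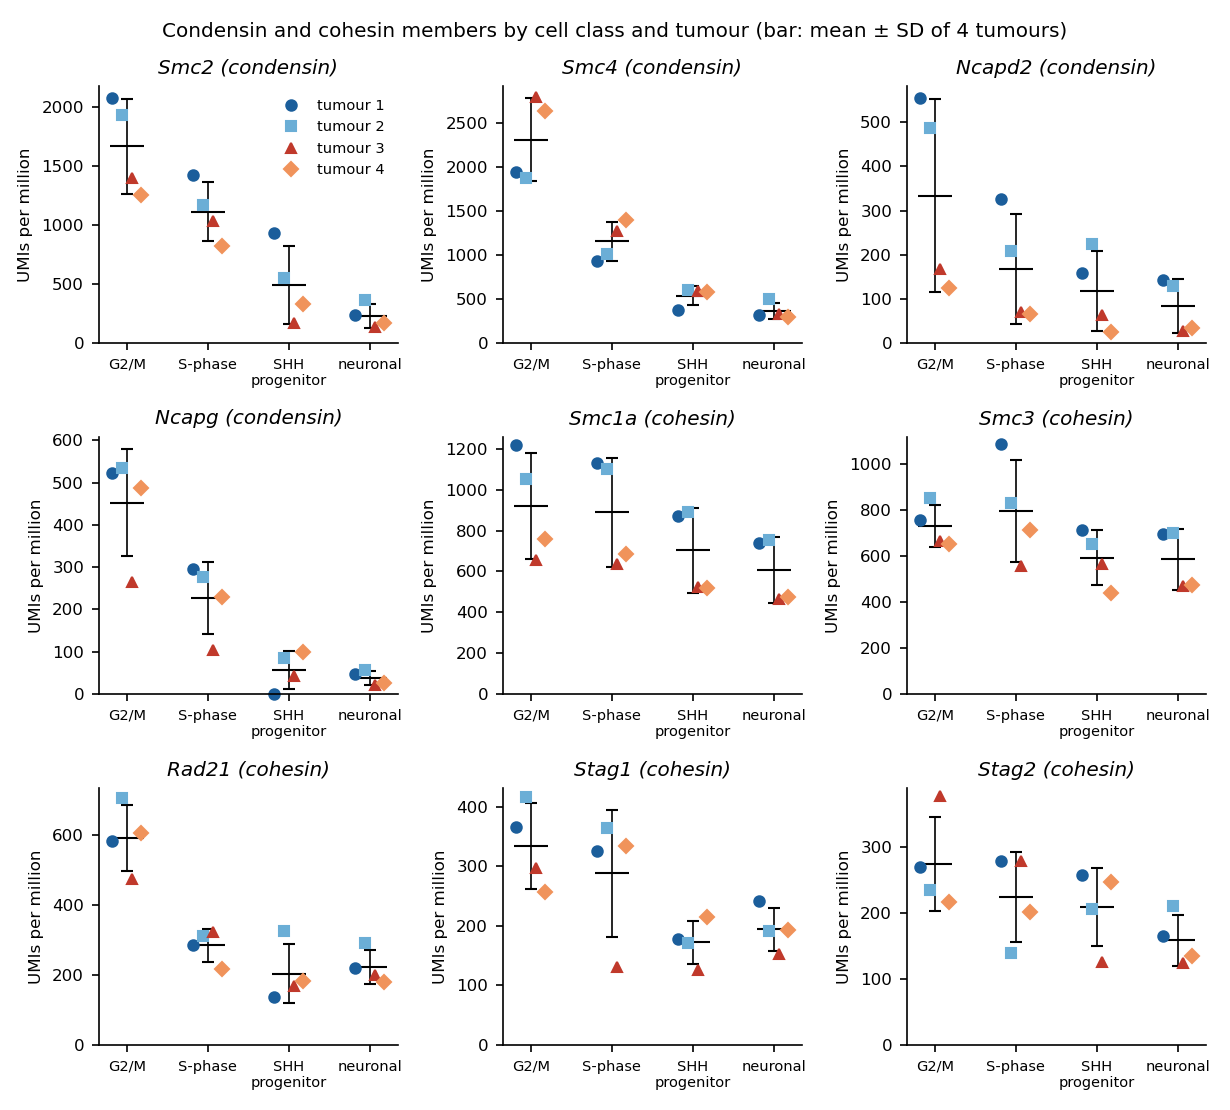
Levels of the 9 members in CPM (vertical axes, linear, from 0) in each cell class (horizontal axes). Points are the 4 tumours, and black bars give the mean and SD. The condensin panels fall steeply from G2/M to neuronal cells, while Smc1a and Smc3 stay between 438 and 1219 CPM in every class and tumour.

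Folds were estimated with edgeR's quasi-likelihood test on UMI sums per class and tumour, with the tumour as a block and Benjamini-Hochberg adjustment over all 4080 genes tested. All 9 members passed the filter on low counts. Between G2/M-like and neuronal cells, Smc2 was 2.81 higher on the log2 scale (SE 0.15, edgeR adjusted p = 4.07e-24) and Smc4 was 2.60 higher (SE 0.14, edgeR adjusted p = 1.54e-24). Of the 9 members, 8 were called higher and none lower, where 32.8% of 3640 genes outside the clustering features were called, 16.6% higher and 16.2% lower. All 4 condensin members were among the 8, with a median log2 fold of 2.70 against -0.00 over all genes tested, and 4 of the 5 cohesin members were, with a median of 0.66. Tumours 1 and 2 alone gave 7 called members, without Smc3 and Stag2, and tumours 3 and 4 alone gave 8, with Smc3 and without Stag1, beside 666 of 3688 and 1055 of 3663 genes called. In those pairs the fold of Smc2 was 2.70 and 3.03, and that of Smc4 was 2.21 and 3.08. Because the cells were sorted into classes by their own transcripts, the p-values only describe the distance between those classes. A sum also does not tell fewer expressing cells from less RNA per cell.

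In S-phase-like cells the ATPase arms were also raised, by less, in a class that also carried G2/M markers, whose part in this was not tested. Smc2 was 2.23 higher than in neuronal cells (SE 0.16) and Smc4 1.59 higher (SE 0.15), both higher in 4 of 4 tumours. There, 7 of 9 members were called higher by edgeR, against 35.5% of genes called in either direction and 18.7% higher. These were all 4 condensin members with a median of 1.91 and 3 of 5 cohesin members with a median of 0.41. G2/M-like exceeded S-phase-like cells by 0.58 for Smc2 (SE 0.13, edgeR adjusted p = 0.00125) and by 1.0 for Smc4 (SE 0.13, edgeR adjusted p = 6.53e-09). This last comparison had few calls elsewhere, 5.11% of genes, 3.32% higher and 1.79% lower, and 5 of the 9 members were called higher. These were the 4 condensin members, with a median of 0.99, and Rad21, the 1 cohesin member of 5, whose list had a median of 0.15. The median over all genes tested was -0.02.

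In progenitor-like cells both arms lay between their S-phase-like and neuronal means, at 495 ± 330 CPM for Smc2 and 536 ± 107 CPM for Smc4 (SD, n = 4 each), above neuronal cells in 4 of 4 tumours. Smc2 exceeded its neuronal level by 0.96 on the log2 scale (SE 0.21, edgeR adjusted p = 0.000297), in 4 of 4 tumours, and was the only one of the 9 members called, where 18.5% of genes were called, 8.57% higher and 9.95% lower. A count of 1 of 9 is near those shares and is not a result about the members. The median fold was 0.58 for the condensin members and -0.13 for the cohesin members, against -0.01 over all genes. Without tumour 1, in which Smc2 reached 930 CPM in these cells, its fold was 0.61 and it was not called (edgeR adjusted p = 0.0843), and in tumours 3 and 4 alone it was 0.77 (edgeR adjusted p = 0.0556). Smc4 was 0.44 higher and was not called (edgeR adjusted p = 0.0858), with 0.19 in tumours 1 and 2 and 0.81 in tumours 3 and 4. Without tumour 2, its fold was 0.60 and it was called (edgeR adjusted p = 0.0134).

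The HEAT-repeat subunits of condensin I were also highest in G2/M-like cells. Ncapg reached 523, 535, 265 and 486 CPM in G2/M-like cells, 295, 278, 105 and 230 CPM in S-phase-like cells, 0, 85.9, 42.1 and 99.1 CPM in progenitor-like cells and 46.5, 57.3, 20.8 and 27 CPM in neuronal cells. Every G2/M-like value lay above every progenitor-like and neuronal value. The 0 in tumour 1 is of 50543 UMIs, which allows up to 73.0 CPM of Ncapg (exact 95% limit, counting error only). Ncapg had the highest fold of the 9 members between G2/M-like and neuronal cells, 3.53 (SE 0.24, edgeR adjusted p = 1.44e-19), and was 1.01 higher in G2/M-like than in S-phase-like cells (SE 0.19). Its 3′ end overlaps Lcorl on the opposite strand, and how strand was counted is not given in the sources used here. Lcorl itself had 119, 112, 120 and 103 CPM in G2/M-like cells and 93.0, 110, 104 and 77.7 CPM in neuronal cells, with overlapping ranges.

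Ncapd2 split by pair of libraries. It reached 556, 488, 168 and 124 CPM in G2/M-like cells, 326, 208, 69.8 and 65.8 CPM in S-phase-like cells, 158, 223, 63.1 and 24.8 CPM in progenitor-like cells and 144, 129, 27.8 and 33.8 CPM in neuronal cells. Tumours 1 and 2 lay above tumours 3 and 4 in every class, so the classes overlapped across tumours although G2/M-like cells were highest within each of the 4. The fold of Ncapd2 between G2/M-like and neuronal cells was 1.90 (SE 0.21, edgeR adjusted p = 1.95e-11), with 1.89 in tumours 1 and 2 and 2.08 in tumours 3 and 4. Between G2/M-like and S-phase-like cells it was 0.99 (SE 0.20, edgeR adjusted p = 0.000341). With the called doublets removed and the cells clustered again, which also redrew the classes (S-phase-like 372 cells in place of 540), that last fold was 0.50 and was not called, and in tumours 3 and 4 alone it was 1.09 and not called (edgeR adjusted p = 0.0970). In S-phase-like against neuronal cells Ncapd2 was 0.91 higher (SE 0.25, edgeR adjusted p = 0.00254), and without tumour 1 it was 0.81 and not called (edgeR adjusted p = 0.0566).

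The remaining condensin subunits gave the same direction. The kleisin Ncaph was 3.0 higher in G2/M-like than in neuronal cells (SE 0.38), and the condensin II subunits Ncapg2, Ncapd3 and Ncaph2 were 2.40, 1.25 and 1.13 higher, all 4 called by edgeR beside 32.8% of all genes. In S-phase-like cells all 4 were also called, beside 35.5%, with a median fold of 1.90. None of the 4 was called between G2/M-like and S-phase-like cells, a comparison in which 5.11% of genes were, where Ncaph was 0.50, Ncaph2 0.33, Ncapd3 -0.05 and Ncapg2 -0.17. The difference between these 4 subunits and the 4 members was not tested.

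**Figure D2:**
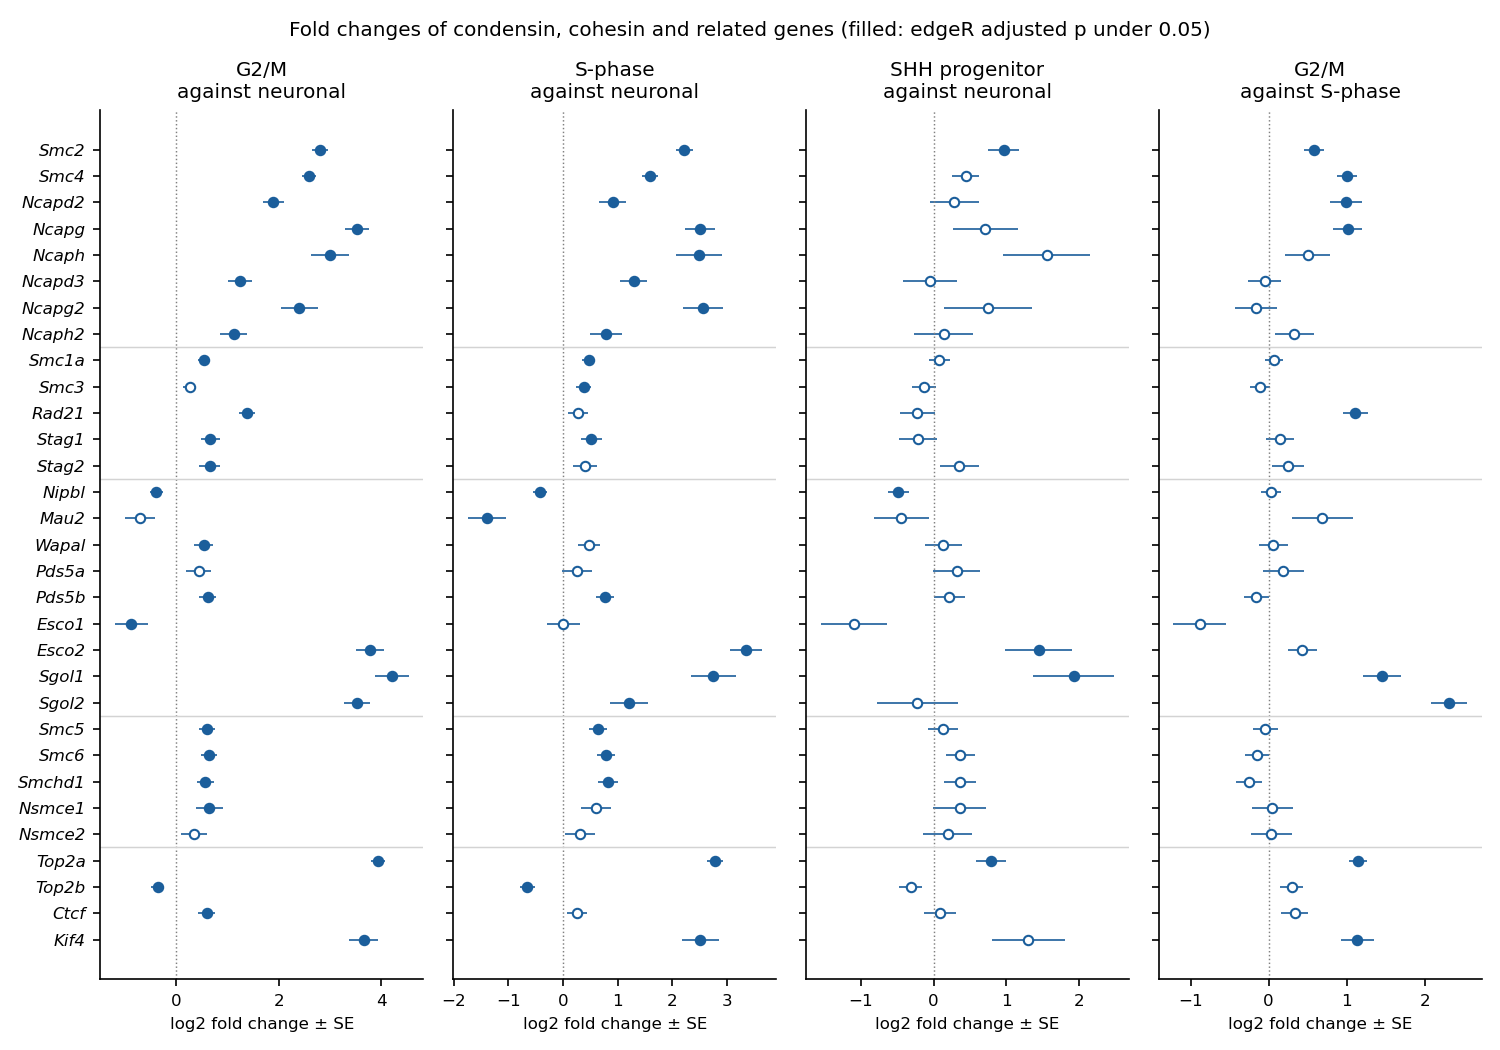
Log2 fold changes with standard errors (horizontal axes) of 31 condensin, cohesin and related genes (rows) in the 4 comparisons (panels), from edgeR. Filled points have an adjusted p under 0.05, and grey lines part condensin, cohesin, cohesin regulators, SMC5/6 genes and partners. The 8 condensin subunits lie at 1.13 or higher in the first panel, and of the cohesin members Rad21 lies at 1.38, above Ncapd3 and Ncaph2, and the other 4 between 0.27 and 0.67.

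The ATPase arms of cohesin varied less between classes than those of condensin. Smc1a reached 1219, 1051, 657 and 756 CPM in G2/M-like cells, 1133, 1101, 637 and 683 CPM in S-phase-like cells, 871, 893, 526 and 520 CPM in progenitor-like cells and 740, 755, 465 and 473 CPM in neuronal cells. Its classes overlapped across tumours, and tumours 1 and 2 were higher than tumours 3 and 4 in each. Within tumours, Smc1a was higher in S-phase-like than progenitor-like cells, and in progenitor-like than neuronal cells, in 4 of 4. It was higher in G2/M-like than S-phase-like cells in 3 of 4. Smc3 reached 755, 852, 665 and 651 CPM in G2/M-like cells, 1086, 833, 559 and 712 CPM in S-phase-like cells, 712, 653, 568 and 438 CPM in progenitor-like cells and 698, 703, 472 and 473 CPM in neuronal cells, again with overlap throughout. Within tumours, Smc3 exceeded its neuronal level in 4 of 4 for G2/M-like and for S-phase-like cells, and in 2 of 4 for progenitor-like cells. Smc1a was higher than in neuronal cells by 0.54 in G2/M-like cells (SE 0.12, edgeR adjusted p = 0.000206) and by 0.47 in S-phase-like cells (SE 0.12, edgeR adjusted p = 0.00177). For Smc3 the same folds were 0.27 (edgeR adjusted p = 0.107), not called, although it was 0.44 and called in tumours 3 and 4 alone (edgeR adjusted p = 0.0220), and 0.38 (SE 0.13, edgeR adjusted p = 0.0192), which was called in 9 of 17 alternatives. Without tumour 1 or without tumour 4 the second fold of Smc3 was 0.32 and 0.34, and it was not called.

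Rad21, the kleisin that separase cuts when sister chromatids part, had the largest folds of the cohesin members in G2/M-like cells, over neuronal and over S-phase-like cells. It reached 583, 705, 473 and 605 CPM in G2/M-like cells, 287, 312, 323 and 218 CPM in S-phase-like cells, 138, 326, 168 and 182 CPM in progenitor-like cells and 220, 292, 201 and 179 CPM in neuronal cells. All 4 G2/M-like values lay above all values of the other classes, which overlapped with each other. Rad21 was 1.38 higher in G2/M-like than in neuronal cells (SE 0.16, edgeR adjusted p = 3.14e-11), and 1.11 higher than in S-phase-like cells (SE 0.16, edgeR adjusted p = 3.04e-07). Within the pairs of libraries the second fold was 1.13 and 1.18. Between S-phase-like and neuronal cells it was 0.27 and was not called (edgeR adjusted p = 0.262). Smc1a and Smc3, the partners of Rad21 in the ring, were 0.07 and -0.11 between G2/M-like and S-phase-like cells, with approximate 95% intervals of -0.17 to 0.31 and -0.37 to 0.14.

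Stag1 and Stag2, the alternative subunits that bind the cohesin ring, overlapped between neighbouring classes in the order of their levels. Stag1 reached 367, 417, 297 and 257 CPM in G2/M-like cells, 326, 364, 131 and 333 CPM in S-phase-like cells, 178, 172, 126 and 215 CPM in progenitor-like cells and 241, 191, 153 and 193 CPM in neuronal cells. Its G2/M-like and neuronal ranges did not overlap. Stag2 reached 270, 235, 377 and 216 CPM in G2/M-like cells, 279, 139, 279 and 202 CPM in S-phase-like cells, 257, 206, 126 and 248 CPM in progenitor-like cells and 165, 210, 125 and 135 CPM in neuronal cells. For Stag2 the G2/M-like values were all above the neuronal values, by a narrow margin, and the other classes overlapped.

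Both Stag genes were called higher in G2/M-like than in neuronal cells, Stag1 by 0.67 (SE 0.18, edgeR adjusted p = 0.00244) and Stag2 by 0.66 (SE 0.20, edgeR adjusted p = 0.00804). The call of Stag2 rested on tumour 3, without which its fold was 0.51 (edgeR adjusted p = 0.0774), and in tumours 1 and 2 alone it was 0.40. The call of Stag1 was lost in tumours 3 and 4 alone (fold 0.56, edgeR adjusted p = 0.0896). In S-phase-like cells Stag1 was 0.52 higher than in neuronal cells (edgeR adjusted p = 0.0276), a call kept in 4 of 17 alternatives and lost without tumour 2 (fold 0.43) or tumour 4 (fold 0.42). With classes set by marker UMIs the fold turned to -0.033. Stag2 was 0.41 higher and not called, but 0.72 higher and called without tumour 2 (edgeR adjusted p = 0.0117).

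Of all UMIs from the Stag pair, Stag2 gave 44.5% in G2/M-like cells (exact 95% interval 40.0 to 49.0%), 42.5% in S-phase-like cells (36.9 to 48.2%), 54.5% in progenitor-like cells (44.8 to 63.9%) and 44.5% in neuronal cells (38.9 to 50.1%). These Clopper-Pearson intervals overlapped and cover counting error only, and differences between classes were not tested. Within S-phase-like cells the share ran from 27.6% in tumour 2 to 68.1% in tumour 3, with intervals that did not overlap (16.7 to 40.9% and 52.9 to 80.9%).

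Condensin was set against cohesin as a ratio of summed UMIs, which compares classes and not the amounts of the complexes, since 3′ counts were not scaled for how well each gene is captured. The ratio was 1.60, 1.48, 1.87 and 1.81 in G2/M-like cells of tumours 1 to 4, 0.958, 0.968, 1.29 and 1.17 in S-phase-like cells, 0.679, 0.649, 0.569 and 0.644 in progenitor-like cells and 0.363, 0.489, 0.363 and 0.365 in neuronal cells. The 4 classes did not overlap, and the order was the same in every tumour. On the log2 scale the means were 0.75 ± 0.16, 0.12 ± 0.21, -0.65 ± 0.11 and -1.35 ± 0.21 (SD, n = 4 each). Condensin UMIs fell from 4761 ± 265 CPM in G2/M-like cells to 2661 ± 225, 1205 ± 305 and 711 ± 251 CPM, and cohesin UMIs from 2852 ± 434 to 2484 ± 543, 1881 ± 376 and 1771 ± 391 CPM (SD, n = 4 each). Members and classes were chosen with results known, and no p-value is attached to the ratio.

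The ratio was also taken in each neuronal cluster, where condensin UMIs are few. In cells led by Pdzrn3 and Cntn2 the log2 ratio was -1.26, -0.94, -1.11 and -1.27, and in cells led by Vps51, Neurod2 and Grin2b it was -1.75, -1.20, -1.95 and -1.86. It was lower in the second cluster in 4 of 4 tumours, and the ranges overlapped through tumour 2. The largest unnamed cluster, led by Cmya5 and Zfhx4 and with the lowest median depth (652 UMIs), had a log2 ratio of -0.11 ± 0.07 (SD, n = 4), between S-phase-like and progenitor-like cells. Its Smc2 level was 635 ± 279 CPM and its Smc1a level 534 ± 178 CPM (SD, n = 4 each). The 49 oligodendrocyte-like cells had log2 ratios of -0.31, -0.40, -4.39 and 0.95 in tumours 1 to 4, from 12, 15, 0 and 39 condensin UMIs. The value of tumour 4 was above every G2/M-like value, and the G2/M markers of these cells summed to 4399 CPM in that tumour.

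**Figure D3:**
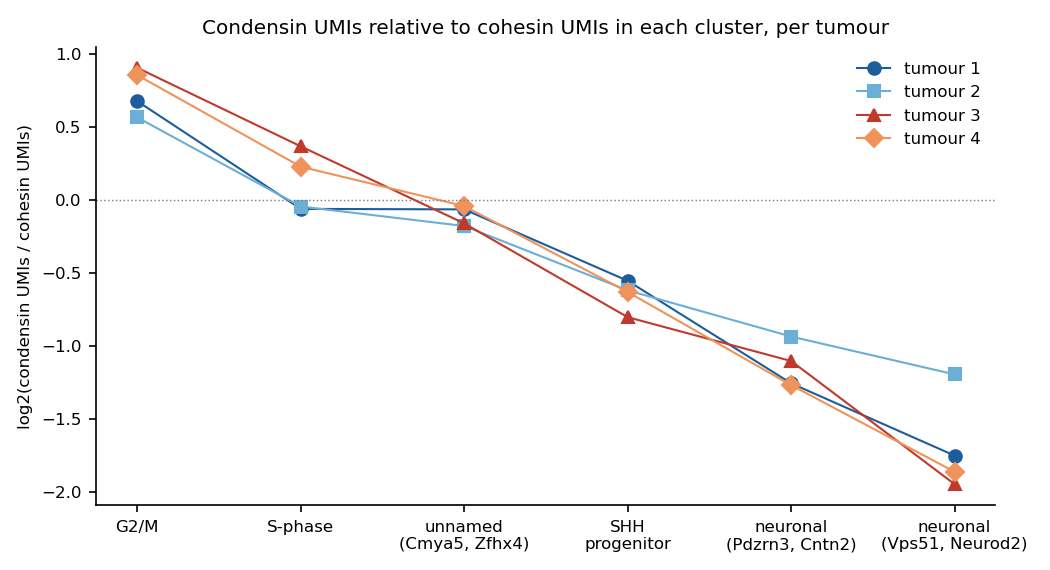
The log2 ratio of condensin to cohesin UMIs (vertical axis) in 6 clusters (horizontal axis), with 1 line per tumour joining its clusters for the eye. Values above the dotted line at 0 mean more condensin than cohesin UMIs. The 4 tumours lie at 0.56 to 0.90 in G2/M cells and at -0.94 or lower in both neuronal clusters.

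Detection per cell showed the same contrast. After thinning every cell to 500 UMIs, any condensin member was seen in 91.0%, 84.4%, 81.5% and 85.7% of G2/M-like cells in tumours 1 to 4, and in 25.7%, 34.3%, 16.7% and 21.9% of neuronal cells. The means were 85.6% ± 3.97 and 24.6% ± 7.42, with 64.1% ± 5.68 in S-phase-like and 39.4% ± 8.89 in progenitor-like cells (SD, n = 4 each). Any cohesin member was seen in 71.6% ± 8.24, 67.3% ± 8.48, 55.4% ± 7.15 and 54.7% ± 7.52 of G2/M-like, S-phase-like, progenitor-like and neuronal cells. Unthinned, the mean condensin shares in the same order were 95.9%, 80.0%, 53.8% and 36.5% and the cohesin shares 90.0%, 84.7%, 74.8% and 70.0%. Thinning left out no cell, since each had at least 500 UMIs.

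Microglia-like cells served to gauge free RNA in the droplets. Thinned, 5 of these 22 cells had a condensin UMI (22.7%, exact 95% interval 7.82 to 45.4%), and 253 of 1013 neuronal cells did (25.0%, 22.3 to 27.8%), at median depths of 1223 and 769 UMIs before thinning. The neuronal share lay within the microglia-like interval, as did the progenitor-like share of 103 of 263 cells (39.2%), so neither was told apart from that reference, which is only 22 cells. The reference is imperfect: its G2/M markers summed to 2163 and 3201 CPM in tumours 1 and 2, and whether its condensin UMIs are its own or free RNA was not tested. The condensin folds and ratios over neuronal cells above are therefore set against a level not shown to exceed free RNA. Smc2 was seen in 8.49% of neuronal and 13.6% of microglia-like cells, and Smc4 in 15.1% and 13.6%. Cohesin members were seen in 55.1% of neuronal cells (52.0 to 58.2%) and 18.2% of microglia-like cells (5.19 to 40.3%). These intervals are over pooled cells and cover counting error only, and 9, 9, 1 and 3 of the 22 cells came from tumours 1 to 4. Thinned, Smc1a was seen in 23.8% and Rad21 in 9.58% of neuronal cells and both in 0 of 22 microglia-like cells, a count that allows up to 15.4% (exact 95% limit), so the Rad21 share was not separated from the reference. Before thinning, 3 of the 22 had a Smc1a UMI and 2 had a Rad21 UMI, so a 0 after thinning is no absence. Unthinned, 31.8% and 59.1% of microglia-like cells had a condensin and a cohesin UMI, at their higher depth.

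**Figure D4:**
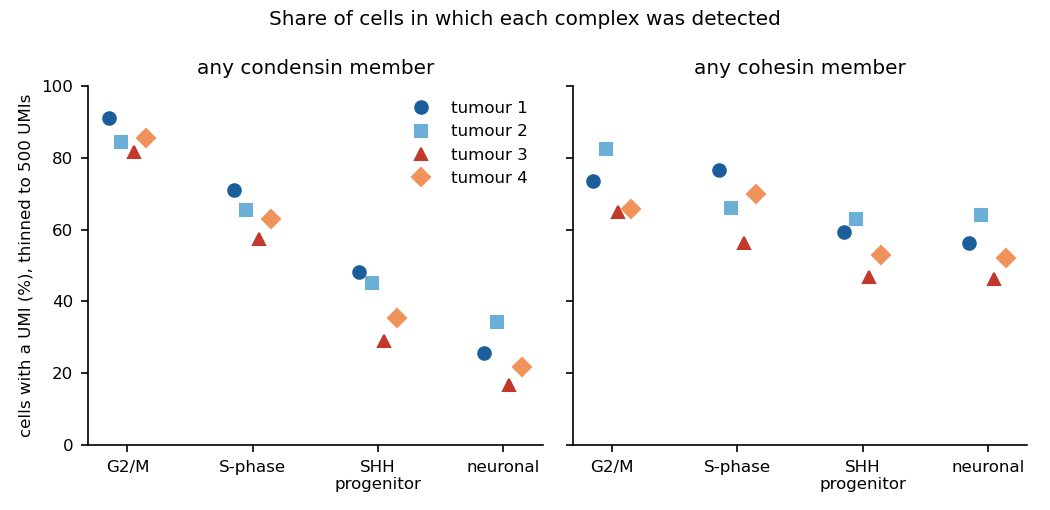
Percentage of cells with at least 1 UMI of a condensin member (left) or a cohesin member (right), on axes from 0 to 100, after thinning each cell to 500 UMIs. Points are the 4 tumours. Condensin shares are 81.5% to 91.0% in G2/M cells and 16.7% to 34.3% in neuronal cells, while cohesin shares lie between 46.2% and 82.5%.

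Factors that load, release and acetylate cohesin moved in both directions. Of 9 such genes, 7 passed the filter, and between G2/M-like and neuronal cells 3 were called higher, 2 lower and 2 neither way, beside 16.6% of all genes higher and 16.2% lower, with a median fold of 0.44. Esco2, the acetyltransferase that locks cohesin during S phase, was 3.78 higher (SE 0.27, edgeR adjusted p = 7.65e-19), with 469, 464, 257 and 473 CPM against 8.46, 52.6, 27.8 and 30.4 CPM. Its paralogue Esco1 was 0.87 lower (SE 0.32, edgeR adjusted p = 0.0269), with 59.3, 11.7, 56.1 and 51.3 CPM against 97.3, 71.7, 76.3 and 74.3 CPM. The ranges of both genes did not overlap between the classes. The loader Nipbl was 0.39 lower in G2/M-like cells (SE 0.12, edgeR adjusted p = 0.0095) and lower in all 4 tumours, whereas the release factor Wapal was 0.54 higher and the scaffold Pds5b 0.61 higher. In S-phase-like cells the loader partner Mau2 was 1.39 lower than in neuronal cells (SE 0.35, edgeR adjusted p = 0.00111). None of the 7 was called between G2/M-like and S-phase-like cells, where 5.11% of genes were.

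Shugoshins, which shield centromeric cohesin, rose with the mitotic class. Sgol1 and Sgol2 were 4.21 and 3.53 higher in G2/M-like than in neuronal cells, and 1.45 and 2.31 higher than in S-phase-like cells, all 4 folds called by edgeR beside 16.6% and 3.32% of all genes called higher in those comparisons. Separase (Espl1) and securin (Pttg1) did not pass the filter, with 70 and 11 UMIs in G2/M-like and 7 and 5 in neuronal cells. Cdca5, from the list of cohesin regulators, had 42 UMIs in G2/M-like cells and 1 in neuronal cells, and Hdac8, the cohesin deacetylase, had 13 and 24. Of the germline cohesin genes, Rec8 had 1 UMI in G2/M-like and 14 in neuronal cells, and Smc1b had 0 and 1.

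Of the third SMC complex, SMC5/6, which acts in DNA repair, 4 genes were tested, and 3 were called higher in G2/M-like than in neuronal cells, beside 16.6% of all genes. Smc5 was 0.60 and Smc6 0.64 higher in G2/M-like than in neuronal cells, the related Smchd1 was 0.57 higher and Nsmce1 0.65 higher, and Nsmce2 (0.35) was not called. None of these 5 was called between G2/M-like and S-phase-like cells, where 5.11% of genes were, with folds from -0.25 to 0.04. Among partners of the complexes, the topoisomerases moved apart: Top2a was 3.93 higher in G2/M-like than in neuronal cells (SE 0.14, edgeR adjusted p = 1.48e-33) and Top2b 0.36 lower (SE 0.13, edgeR adjusted p = 0.0266). The chromokinesin Kif4 was 3.66 higher, and Ctcf, the protein at which cohesin loops stop, was 0.60 higher.

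The genes whose log2 CPM over the 16 sums of class and tumour ran closest to summed condensin were D17H6S56E-5 (Pearson's r = 0.97), Tmpo (0.96), Casc5 (0.95), Mki67 (0.95) and Spdl1 (0.94), among 4183 genes with a mean of at least 50 CPM. Those closest to summed cohesin were Mki67 (0.95), Ccdc18 (0.93), Ezh2 (0.92), Smarcc1 (0.91) and Cdc20 (0.90). Mki67 and Ccdc18 were clustering features. The 16 sums share 4 tumours and their library depth, and sums of 1 tumour are not independent, so these values are descriptions without a test.

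In GENCODE M21 (GRCm38), the assembly that the submitters' processing notes name as mm10, the condensin members lie apart from each other. Smc2 spans chromosome 4 from 52439243 to 52488260 and Smc4 chromosome 3 from 69004738 to 69034623, both on the plus strand. Ncapd2 spans chromosome 6 from 125168007 to 125191701 on the minus strand, and Ncapg chromosome 5 from 45669919 to 45700546 on the plus strand. Among cohesin members, Smc1a (152016428 to 152062694) and Stag2 (42149317 to 42277185) are both on chromosome X on the plus strand. Smc3 spans chromosome 19 from 53600398 to 53645833 and Stag1 chromosome 9 from 100597798 to 100959375, on the plus strand, and Rad21 chromosome 15 from 51962240 to 51991747 on the minus strand.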

How the data were processed

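The deposited tables hold UMI counts per gene and cell barcode, whole numbers that the authors made from Drop-seq reads. STAR and mm10 are named per the submitters' processing notes, and the counter and its strand setting are not given in the sources used here. Cell tables with names that match no labelled sample were not used (6 tables, 11203 cell columns). Barcodes with at least 500 UMIs were kept, with no mitochondrial limit. Cells were clustered with scanpy 1.11.5 (2000 variable genes centred within each library, 30 components, 15 neighbours, Leiden resolution 1). A cluster was named when 3 of its 50 leading genes were markers of a type and their mean log2 fold was at least 0.4, unless another list had a higher mean fold or more markers among its top 10 genes, or its first gene was another type's marker, thresholds set after seeing the data. Counts were summed per class and tumour and tested with edgeR 4.0.16 (TMM, filterByExpr with a minimum count of 10, quasi-likelihood test, tumour as a block), with an adjusted p under 0.05 as the call. Sums of the same tumour come from the same animal, and their deviations correlated at 0.46 to 0.78 across genes, which is the reason for the block. Background shares of calls are over 3640 genes not used in clustering. On data simulated for G2/M-like against neuronal cells (3697 genes), 78.0% of genes changed 2-fold and 99.0% of those changed 4-fold were recovered, with 2.91% false calls. The simulation changed a small set of genes, as many up as down, in the G2/M-like sums alone. In the data 32.8% of genes were called, so these rates need not hold there. Named genes were the 9 members and genes of the listed complexes and regulators, and for likeness the 5 highest correlations per complex. Alternatives covered doublets, depth, mitochondrial share, clustering, scaling, filter, block, DESeq2 1.42.0 and leaving out each tumour. The members and lists were chosen with earlier results of these data known.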

Additional observations from a re-analysis of the deposited data

Results flagged for a closer look

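Among 40 groups of 4 tumours tested for a value far from the others, 4 were singled out, and chance flags about 1 in 20 groups. Stag1 in S-phase-like cells was 131 CPM in tumour 3, against 326 to 364 CPM in the other tumours. Smc4 in progenitor-like cells was 376 CPM in tumour 1, against 578 to 601 CPM. Smc4 in neuronal cells was 502 CPM in tumour 2, against 301 to 333 CPM. The log2 ratio of condensin to cohesin UMIs in neuronal cells was -1.03 in tumour 2, against -1.46 to -1.45.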

How the results depend on the processing

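The alternatives numbered 19 for G2/M-like against neuronal cells, 17 for each comparison with S-phase-like cells and 15 for progenitor-like cells. No progenitor-like class was found with at least 1000 UMIs, with at most 10% mitochondrial UMIs, at resolution 0.5 or without centring, and the last 2 gave no S-phase-like class either. Smc2, Smc4, Ncapg and Rad21 were called in all 19 alternatives, DESeq2 among them, between G2/M-like and neuronal cells. The tumour numbers pair sums of the same animal, so the fit with no replicate block ignores that pairing: it called 312, 366, 140 and 22 genes in place of 1194, 1294, 674 and 186 (G2/M-like against neuronal, S-phase-like against neuronal, progenitor-like against neuronal, G2/M-like against S-phase-like), and 4, 3, 0 and 0 members. In the same order, thinned cells gave 608, 646, 374 and 94 genes, tumours 1 and 2 alone gave 666, 648, 271 and 85, and leaving out each tumour gave 785 to 1175, 861 to 1245, 390 to 708 and 108 to 179, lowest without tumour 4. At least 1000 UMIs gave 658 and 788 genes in the first 2 comparisons, and no centring gave 575 in the first. Removing called doublets and clustering again, which redrew the classes (progenitor-like 668 cells in place of 263, S-phase-like 372 in place of 540), gave 1161 genes in the progenitor-like comparison and 116 between G2/M-like and S-phase-like cells. With library size alone as scaling, the median of all genes in the progenitor-like comparison moved from -0.01 to 0.10, and 59.3% of calls were higher in place of 46.3%.

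The log2 ratio was 0.54 in G2/M-like cells without centring, -0.054 in S-phase-like cells of tumours 1 and 2 (reversed), -0.36 in progenitor-like cells with doublets removed and -0.48 at resolution 2, and -1.03 in neuronal cells set by marker UMIs. Leaving out each tumour gave 0.70 to 0.81, 0.04 to 0.18, -0.69 to -0.60 and -1.46 to -1.31. The Stag2 share was 64.5% in progenitor-like cells at resolution 2 and 50% by marker UMIs, and 32.5% in neuronal cells with at least 1000 UMIs, and leaving out each tumour gave 42.1 to 46.9%, 38.0 to 45.9%, 53.3 to 55.4% and 41.6 to 46.2%. Unthinned shares were 95.9%, 80.0%, 53.8% and 36.5% for condensin and 90.0%, 84.7%, 74.8% and 70.0% for cohesin. Folds of members that changed sign were all uncalled as reported, except Stag1 in S-phase-like against neuronal cells (-0.033 by marker UMIs). In progenitor-like cells these were Ncapd2 (-0.0049 at resolution 2, -0.59 by marker UMIs), Ncapg (-0.012 without tumour 4, up to 1.12 without tumour 1, and -0.27 in tumours 1 and 2), Smc1a (-0.11 at resolution 2, -0.070 with no filter), Smc3 (0.025) and Rad21 (0.0018) with doublets removed. Between G2/M-like and S-phase-like cells they were Smc1a (-0.15 with at most 10% mitochondrial UMIs), Smc3 (0.027 without tumour 1, down to -0.18 without tumour 3, and 0.049 in tumours 3 and 4) and Stag1 (-0.00025 without tumour 3, up to 0.44 without tumour 4). The causes were not tested. In the progenitor-like class, of 263 cells, Ncapg had 19 UMIs over all tumours.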
